A study of Homo sapiens with 12 samples.

Results

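Aminoacyl-tRNA synthetases join each amino acid to its tRNA, and 35 human genes for them were followed here in breast cancer cells kept in acid medium. The members were the rows of the count table whose gene symbol is on a list of 35 synthetase genes, 35 of the 60664 genes in the table, and all 35 had enough reads to be tested. They fall into 19 genes for cytosolic or dual enzymes, whose symbols end in 1 or are FARSA or FARSB, and 16 genes for mitochondrial enzymes, whose symbols end in 2. Synthetase genes outside that list are not reported here. Poly(A)-selected RNA came from MDA-MB-231, an established human triple-negative breast cancer cell line of wild-type genotype, with 4 libraries at pH 6.4, 4 at pH 6.9 and 4 at pH 7.4, and was sequenced after 24 h in the medium. All cells were first grown at pH 7.4 to 70 to 80% confluence, and the pH 7.4 flasks were washed and given fresh medium in the same way as the acid ones. The sample labels name the intermediate medium pH 6.9 while the protocol gives pH 6.7, and which of these held was not given in the sources used here. Labels call the 4 libraries of a medium repeats and do not say that they came from separate cultures, so p-values measure the spread between these libraries, which may be technical.

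In the cytosol each amino acid has a synthetase, and several of these enzymes, among them the enzyme for both glutamate and proline (EPRS1), sit together in the multisynthetase complex on small scaffold proteins. Mitochondria translate a few respiratory chain subunits with their own tRNAs, which are charged by separate nuclear-encoded enzymes, except that GARS1 and KARS1 each serve both compartments from 1 gene. Transcription of many cytosolic synthetase genes is known to be raised by ATF4, the transcription factor of the integrated stress response, which answers uncharged tRNA, among other stresses, through the kinase GCN2.

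The libraries held 21060767 to 50643233 counts. Levels are in CPM, counts put on a scale that all libraries share. Marker levels in this paragraph were instead scaled by each library's own total alone. VIM, CD44, KRT18, EGFR, MET and AXL, genes typical of the line, stood at 336 CPM or more in every library, KRT18 with its lowest levels at pH 6.4 (336 to 448 CPM, against 537 to 678 CPM at pH 7.4), and SPARC stood at 1.29 to 4.24 CPM. Of genes looked for as low in a triple-negative line, ESR1, PGR and FOXA1 were at 0.281 CPM or less, but GATA3 stood at 7.997 to 21.6 CPM and ERBB2 at 61.2 to 99.6 CPM. Of the markers of other cell types, CD3E was at 0 in all libraries and PTPRC, CD68, VWF, CDH5, ALB, DCN and ADIPOQ were at 0.741 CPM or less, while PECAM1 reached 12.7 CPM and PDGFRB 23.3 CPM. The first repeat at pH 7.4 held the fewest detected genes, 17841 against up to 27384 elsewhere, and the counts of called synthetases are given without it where they change. In RNA from whole cultures, fewer cells of a kind and less RNA per cell cannot be told apart. Use of strand in counting was not given in the sources used here, so reads of a gene and of an overlapping gene on the other strand may have been mixed. Rows for synthetase pseudogenes each held at most 21 counts in a library.

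After 24 h at pH 6.4 the cytosolic enzymes' transcripts were higher as a group, while those for the mitochondrial enzymes split. Of the 19 cytosolic or dual genes, 12 rose against pH 7.4, namely CARS1, YARS1, GARS1, AARS1, MARS1, LARS1, IARS1, EPRS1, WARS1, SARS1, QARS1 and NARS1, or 63.2% of them. None fell by edgeR's quasi-likelihood test, fitted without a block for the repeat number, at an adjusted p under 0.05. At an unadjusted p under 0.05, 1 was lower, and DESeq2 called 1 lower. Over all 17544 genes tested, 15.6% rose and 14.7% fell in the same comparison (30.3% in either direction). Of all called genes 51.4% were higher, or 40.4% with libraries scaled by their totals alone. Of the 16 mitochondrial genes, TARS2 rose and FARS2, CARS2, WARS2 and LARS2 fell, so that 31.2% were called in either direction, a share close to that of all genes. The median log2 change was 0.43 for the cytosolic or dual genes and -0.03 for the mitochondrial ones, beside -0.00 for all tested genes. Without the first repeat at pH 7.4 the cytosolic count was 11 higher, with NARS1 lost, and 1 lower (FARSA). With the repeat number as a block it was 12 higher and 2 lower (HARS1 and TARS1), and the mitochondrial count 2 higher and 5 lower. That fit called 3751 of the 17544 tested genes higher and 3539 lower. The 4 libraries at pH 6.4 lay wholly above the 4 at pH 7.4 for 9 cytosolic genes and wholly below for 1, HARS1, where 14.4% of all tested genes lay wholly above and 13.5% wholly below.

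**Figure D1:**
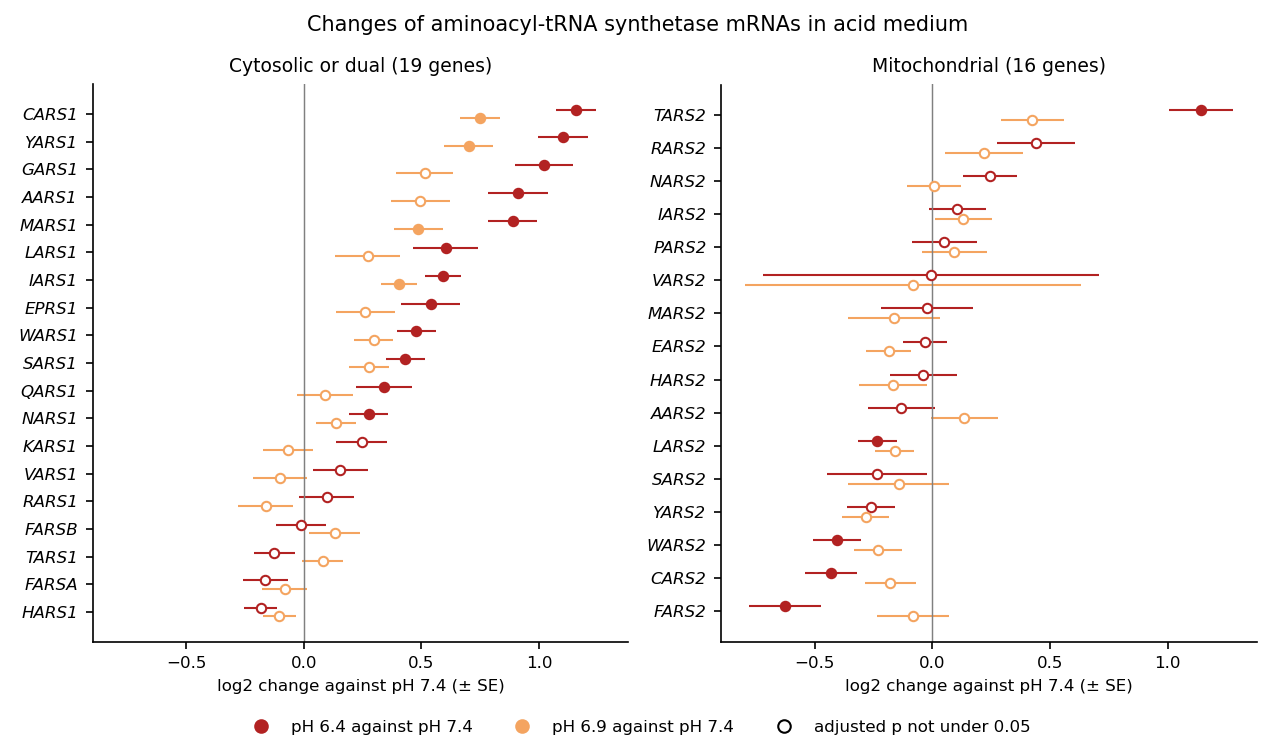
Fitted log2 change (x axis, ± SE) of each of the 35 synthetase genes at pH 6.4 (red) and pH 6.9 (orange) against pH 7.4, 4 libraries per medium, with filled points where the adjusted p was under 0.05. In the left panel 12 of the 19 cytosolic or dual genes are filled and right of 0 at pH 6.4, whereas in the right panel TARS2 alone is filled to the right and 4 mitochondrial genes are filled to the left.

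Among the cytosolic enzymes, the largest rises were in genes whose products act outside the multisynthetase complex. CARS1, the cysteine enzyme (ENSG00000110619, chr11:3000922-3057613 in GRCh38), had 157, 180.3, 164 and 196 CPM at pH 6.4, 119.9, 132, 134 and 139.7 CPM at pH 6.9, and 84.9, 78.0, 74.7 and 75.2 CPM at pH 7.4. All pH 6.4 libraries stood above all pH 6.9 libraries, and these above all pH 7.4 libraries. Its log2 change was 1.16 ± 0.09 (SE) at pH 6.4 and 0.75 ± 0.09 at pH 6.9 against pH 7.4, with adjusted p = 1.76e-06 and 0.000951 in edgeR's quasi-likelihood test. YARS1, the tyrosine enzyme (ENSG00000134684, chr1:32775237-32818153), had 138, 173, 151 and 175 CPM at pH 6.4, 105, 128, 109 and 141 CPM at pH 6.9, and 79.4, 74.5, 68.7 and 74.1 CPM at pH 7.4. Both acid media stood clear of pH 7.4, and only the first repeat at pH 6.4 dipped below the highest pH 6.9 library. The change at pH 6.4 was 1.10 ± 0.11 (adjusted p = 1.45e-05). GARS1, the glycine enzyme of both compartments (ENSG00000106105, chr7:30594681-30634033), had 365, 492, 312 and 459 CPM at pH 6.4, 279, 301, 260.5 and 305 CPM at pH 6.9, and 199, 219, 192 and 192 CPM at pH 7.4. Its 3 groups did not overlap and followed the acidity of the medium, with a log2 change of 1.02 ± 0.12 at pH 6.4 (adjusted p = 6.81e-05). AARS1, the alanine enzyme (ENSG00000090861, chr16:70252295-70289543), had 136, 181, 128 and 179 CPM at pH 6.4, 109.9, 128, 101 and 129.9 CPM at pH 6.9, and 88.9, 91.0, 74.1 and 78.4 CPM at pH 7.4. Every acid library exceeded every pH 7.4 library, and the pH 6.4 and pH 6.9 groups overlapped by little (128 and 129.9 CPM). Its change at pH 6.4 was 0.91 ± 0.13 (adjusted p = 0.000175).

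Smaller rises outside the complex were seen for WARS1, SARS1 and NARS1. WARS1, the tryptophan enzyme that interferon is also known to induce, had 152, 153, 169.8 and 168 CPM at pH 6.4, 136, 127, 143 and 161 CPM at pH 6.9, and 109, 123, 117 and 112 CPM at pH 7.4. Both acid groups lay above the pH 7.4 group without overlap, and its change at pH 6.4 was 0.48 ± 0.08 (edgeR adjusted p = 0.000802). SARS1, the serine enzyme, ranged over 189.6 to 224 CPM at pH 6.4, 163 to 205 CPM at pH 6.9 and 142 to 161 CPM at pH 7.4, and its change of 0.43 ± 0.08 had an adjusted p of 0.0017 by the same test. NARS1, the asparagine enzyme, ranged over 192 to 229 CPM at pH 6.4, 179.6 to 204 CPM at pH 6.9 and 164 to 195 CPM at pH 7.4. Its groups overlapped through the second repeat at pH 7.4, and the change of 0.27 ± 0.08 passed narrowly (adjusted p = 0.0234). That call was lost in 5 of 12 omissions of a single library (adjusted p of 0.0566 to 0.0763). In edgeR with the repeat number as a block, NARS1 had an adjusted p of 0.00111. 5 enzymes outside the complex did not pass. Their log2 changes ran from -0.18 for HARS1, the histidine enzyme, over -0.16 for FARSA and -0.01 for FARSB, the subunits of the phenylalanine enzyme, and -0.12 for TARS1, the threonine enzyme, to 0.16 for VARS1, the valine enzyme. With the repeat number as a block, HARS1 at -0.18 (adjusted p = 0.0184) and TARS1 at -0.12 (adjusted p = 0.0408) were called lower at pH 6.4. Thus 2 cytosolic genes fell and 12 rose, where the block called 3539 of all 17544 tested genes lower and 3751 higher. FARSA at pH 7.4 had 58.8 CPM in the first repeat and 77.3 to 78.2 CPM in the other 3.

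Among the enzymes of the multisynthetase complex, 5 of 7 (71.4%) rose at pH 6.4, with a median log2 change of 0.54 over the 7. Outside the complex the count was 7 of 12 (58.3%) and the median 0.35. Of all tested genes 15.6% rose. MARS1, the methionine enzyme (ENSG00000166986, chr12:57475445-57517569), had 173, 197, 160.2 and 209.6 CPM at pH 6.4, 128, 138, 128 and 167 CPM at pH 6.9, and 103, 106, 91.1 and 99.9 CPM at pH 7.4. Each acid library stood above each pH 7.4 library, and its change at pH 6.4 was 0.89 ± 0.11 (edgeR adjusted p = 6.6e-05). The 3′ end of MARS1 overlaps DDIT3 on the other strand, and DDIT3, which encodes a stress transcription factor, averaged 28.5 ± 6.15 CPM at pH 6.4 and 15.5 ± 1.24 CPM at pH 7.4 (errors are SDs of 4 libraries). That overlap's part in the MARS1 change was not tested. LARS1, the leucine enzyme, which is also known to sense leucine for the mTORC1 kinase, had 308, 334, 241 and 259.6 CPM at pH 6.4, 243, 266, 186 and 213 CPM at pH 6.9, and 217, 209.6, 155 and 171 CPM at pH 7.4. In each medium the first 2 repeats were higher than the other 2, and the pH 6.4 group still lay above the pH 7.4 group (change 0.60 ± 0.14, adjusted p = 0.00476). IARS1, the isoleucine enzyme, had 377, 419, 393 and 398 CPM at pH 6.4, 339, 341, 321 and 392 CPM at pH 6.9, and 253, 273, 254 and 272 CPM at pH 7.4. The pH 7.4 libraries were the lowest 4 of the 12, with changes of 0.59 ± 0.08 at pH 6.4 and 0.40 ± 0.08 at pH 6.9 (adjusted p = 0.000104 and 0.0253).

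EPRS1, the fused glutamate and proline enzyme, had 316, 372, 239 and 308 CPM at pH 6.4, 272, 273, 218 and 255 CPM at pH 6.9, and 225, 243, 188 and 194 CPM at pH 7.4. The third repeat at pH 6.4 lay just below the second at pH 7.4, so the groups overlapped, and the change was 0.54 ± 0.13 (edgeR adjusted p = 0.00522). QARS1, the glutamine enzyme, had 204, 233, 172 and 194 CPM at pH 6.4, 178, 193, 151 and 153 CPM at pH 6.9, and 180.1, 175, 139 and 140.3 CPM at pH 7.4. Here the groups overlapped by more, and the change of 0.34 ± 0.12 had an adjusted p of 0.0411. That call was lost in 6 of 12 omissions of a single library (adjusted p of 0.0524 to 0.134) and with libraries scaled by their totals alone (0.0909). In edgeR with the repeat number as a block, QARS1 had an adjusted p of 0.000436. KARS1, the lysine enzyme of both compartments, had 169, 187, 124 and 178 CPM at pH 6.4, 131, 142, 123 and 134 CPM at pH 6.9, and 144, 131, 139.7 and 141 CPM at pH 7.4. 3 of its pH 6.4 libraries stood above every pH 7.4 library and the third repeat below all of them, and its change of 0.25 ± 0.11 did not pass (adjusted p = 0.0962). Without that repeat the KARS1 change was 0.36 and passed (adjusted p = 0.00147). Of the dual enzymes, GARS1 thus passed with all libraries and KARS1 did not, and the difference between them was not tested. RARS1, the arginine enzyme, ranged over 127 to 210.3 CPM at pH 6.4, 131 to 152 CPM at pH 6.9 and 154 to 165 CPM at pH 7.4, with a change of 0.10 ± 0.12 (adjusted p = 0.579). The genes for the complex's scaffold proteins AIMP1, AIMP2 and EEF1E1 were at 0.14, -0.01 and 0.10 on the log2 scale. 0 of these 3 passed in edgeR (30.3% of all tested genes did), 0 had an unadjusted p under 0.05 and 0 passed in DESeq2.

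**Figure D2:**
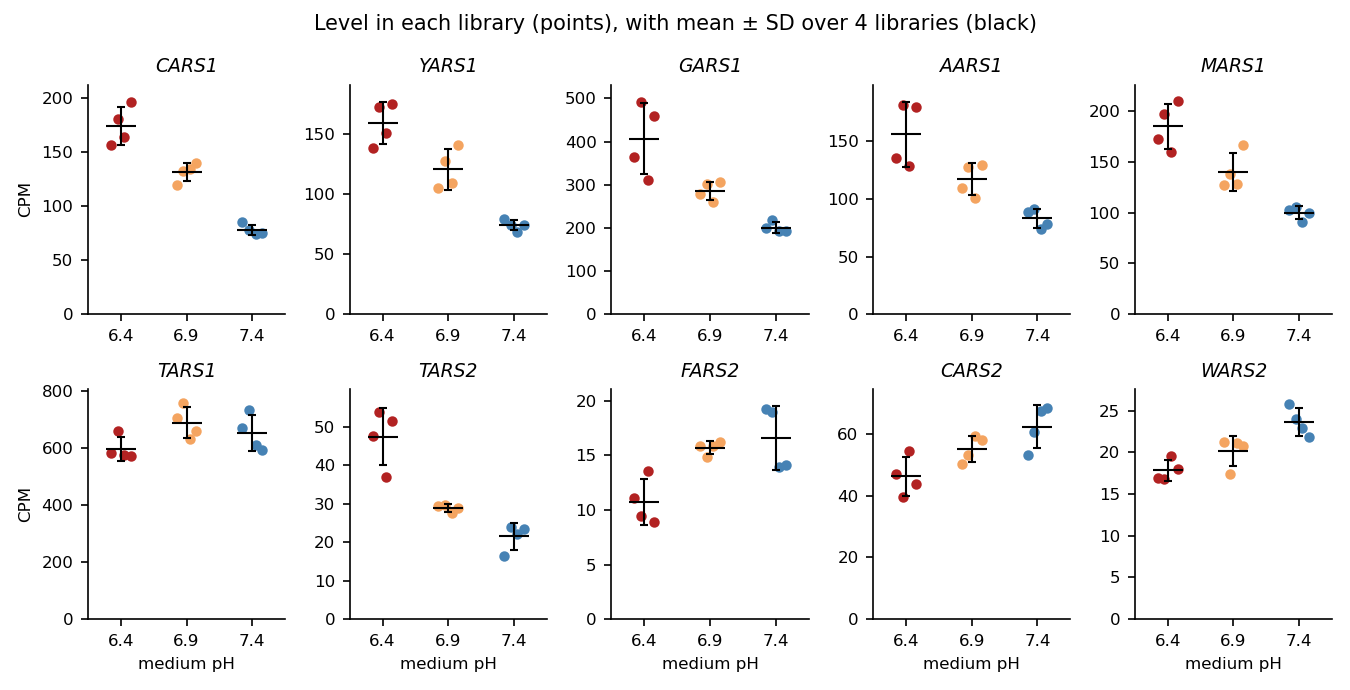
CPM (y axis, from 0) of 10 synthetase genes in each of the 12 libraries (points) by pH of the medium, with the mean and SD of 4 libraries in black. The pH 6.4 points of CARS1, YARS1, GARS1, AARS1, MARS1 and TARS2 lie above all pH 7.4 points, those of FARS2 and WARS2 below them, those of CARS2 overlap them, and those of TARS1 lie between 573 and 758 CPM in all 3 media.

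ATF4 acts with C/EBP proteins on an element of the form TGATGNAA, and 8 of the 30 members with a RefSeq promoter window in GRCh38.p14 held it on 1 of the strands. The windows ran from 250 bases before to 50 after an annotated start, and both strands were searched for these 8 letters. The element was present in 7 of 16 cytosolic or dual genes (43.8%) and in 1 of 14 mitochondrial genes (7.14%). For all genes with a window the share was 4.46%, or 3.62% of the 35116 windows. These are 27305 genes whatever their expression, whereas all members had enough reads to be tested, and no share was computed over tested genes alone. Among cytosolic genes it was in 6 of the 10 that rose and have a window, and in 1 of 6 that were not called. It was in 0 of the 4 mitochondrial genes that fell, a count that says only that these letters are not in those windows. A match is a description of the sequence and not a bound site. The following sequences are shown because they hold the matches, each 30 bases on the gene's own strand from 5′ to 3′, with the element in capitals (TTNCATCA where it lies on the other strand).
CARS1: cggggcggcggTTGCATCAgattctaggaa
GARS1: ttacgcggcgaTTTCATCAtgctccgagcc
AARS1: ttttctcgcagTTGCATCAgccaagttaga
MARS1: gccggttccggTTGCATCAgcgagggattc
IARS1: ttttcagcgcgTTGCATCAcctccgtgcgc
NARS1: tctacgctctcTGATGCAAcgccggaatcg
TARS1: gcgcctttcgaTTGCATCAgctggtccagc
YARS2: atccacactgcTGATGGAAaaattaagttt
These lie at chr11:3057407-3057436 for CARS1, chr7:30594834-30594863 for GARS1 and chr16:70289675-70289704 for AARS1. For the complex enzymes they lie at chr12:57488053-57488082 for MARS1 and chr9:92293692-92293721 for IARS1, and for the others at chr18:57621804-57621833 for NARS1, chr5:33440956-33440985 for TARS1 and chr12:32756076-32756105 for YARS2. CARS1, AARS1, MARS1, IARS1, NARS1 and TARS1 carry the same 8 letters, TGATGCAA read on 1 strand or the other, whereas GARS1 has TGATGAAA and YARS2 TGATGGAA. The element spans the start site in CARS1 (-2 to 6) and in MARS1 (-4 to 4), and lies just before it in IARS1 (-13 to -6) and GARS1 (-33 to -26). It lies just after the start in TARS1 (3 to 10) and NARS1 (15 to 22), and far upstream in AARS1 (-187 to -180) and YARS2 (-197 to -190). TARS1 and YARS2 hold the element and were not called higher, and EPRS1, QARS1, SARS1 and WARS1 rose with no match in their windows. YARS1, LARS1, VARS1, AARS2 and VARS2 had no entry.

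Among the mitochondrial enzymes TARS2, for threonine (ENSG00000143374, chr1:150487364-150507609), had 47.5, 53.7, 36.8 and 51.5 CPM at pH 6.4, 29.4, 29.7, 27.5 and 28.8 CPM at pH 6.9, and 16.3, 24.0, 22.1 and 23.5 CPM at pH 7.4. The 3 groups did not overlap, and its log2 change at pH 6.4 was 1.14 ± 0.13 (edgeR adjusted p = 6.36e-05), the second largest of the 35. Its cytosolic counterpart TARS1 ranged over 573 to 662 CPM at pH 6.4, 634 to 758 CPM at pH 6.9 and 594 to 734 CPM at pH 7.4. Without a block TARS1 did not pass at either acid pH against pH 7.4. With the repeat number as a block it was called lower at pH 6.4 (-0.12, edgeR adjusted p = 0.0408). FARS2, for phenylalanine (ENSG00000145982, chr6:5261044-5829192), had 11.1, 9.41, 13.6 and 8.87 CPM at pH 6.4, 15.9, 14.8, 15.9 and 16.2 CPM at pH 6.9, and 19.3, 18.96, 13.96 and 14.1 CPM at pH 7.4. Its pH 6.4 libraries were the lowest 4 of the 12, its pH 6.9 libraries lay within the pH 7.4 range, and the change at pH 6.4 was -0.63 ± 0.15 (adjusted p = 0.00711). CARS2, for cysteine (ENSG00000134905, chr13:110641412-110713603), had 47.1, 39.7, 54.6 and 43.7 CPM at pH 6.4, 50.4, 53.1, 59.3 and 58.1 CPM at pH 6.9, and 53.2, 60.7, 67.5 and 68.4 CPM at pH 7.4. The highest pH 6.4 library lay just above the lowest pH 7.4 library, and the change was -0.43 ± 0.11 (adjusted p = 0.00884). WARS2, for tryptophan (ENSG00000116874, chr1:119031216-119140671), had 16.9, 16.8, 19.6 and 18.02 CPM at pH 6.4, 21.3, 17.5, 21.1 and 20.7 CPM at pH 6.9, and 25.8, 24.0, 22.9 and 21.9 CPM at pH 7.4. Both acid groups lay below all pH 7.4 libraries, with a change of -0.41 ± 0.10 at pH 6.4 (adjusted p = 0.00848).

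LARS2, for leucine (ENSG00000011376, chr3:45388506-45549421), had 42.3, 39.3, 41.3 and 39.7 CPM at pH 6.4, 43.0, 43.0, 41.1 and 44.2 CPM at pH 6.9, and 54.6, 43.7, 47.7 and 45.4 CPM at pH 7.4. The pH 6.4 group lay below the pH 7.4 group without overlap, but the change was small at -0.23 ± 0.08 and passed narrowly in edgeR (adjusted p = 0.0456), a call that 17 of 23 alternative analyses did not make. The other 11 mitochondrial genes were not called. Highest among them were RARS2, for arginine, at 0.44 ± 0.17 (adjusted p = 0.0592) and NARS2, for asparagine, at 0.25 ± 0.11 (adjusted p = 0.119). Lowest was YARS2, for tyrosine, at -0.26 ± 0.10 (adjusted p = 0.064), whose 4 pH 6.4 libraries at 22.1, 22.4, 22.7 and 22.1 CPM all lay below the lowest pH 7.4 library at 23.8 CPM. With the repeat number as a block, RARS2 was called higher (0.44, adjusted p = 0.00328) and YARS2 lower (-0.26, adjusted p = 0.0462). This made 2 of the 16 mitochondrial genes higher and 5 lower, where the block called 3751 of all 17544 tested genes higher and 3539 lower. Without the third repeat at pH 6.4, 3 mitochondrial genes were called higher, TARS2, RARS2 and NARS2, and without the first repeat at pH 7.4 or the second at pH 6.9 there were 2, TARS2 and RARS2. IARS2 was at 0.11, PARS2 at 0.05, MARS2 at -0.02, EARS2 at -0.03, HARS2 at -0.04, AARS2 at -0.13 and SARS2 at -0.24 on the log2 scale. VARS2, for valine, had at most 0.793 CPM in any library and 0 in the first repeat at pH 7.4, so its change of -0.01 ± 0.71 carries little precision. GTF2H4 overlaps VARS2 on the same strand, so its counts are uncertain as well. HARS1 and HARS2 start head to head with overlapping ends, so part of either one's reads may belong to the other.

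Set against each other within each library, enzymes for the same amino acid parted at pH 6.4. The log2 ratio of cytosolic to mitochondrial CPM, which does not depend on how libraries were scaled, was taken for 16 pairs, leaving out VARS1 and VARS2 because VARS2 was 0 in a library. It was higher at pH 6.4 than at pH 7.4 with no overlap between groups in 9 pairs, lower with no overlap in 2, and overlapping in 5. For single genes, 14.4% of all tested lay wholly above and 13.5% wholly below, and no such share was computed for ratios. The pairs are not independent, since EPRS1 and FARS2 recur among them. The CARS1 to CARS2 ratio was 1.92 ± 0.30 at pH 6.4, 1.25 ± 0.06 at pH 6.9 and 0.33 ± 0.25 at pH 7.4 (errors are SDs of 4 libraries), a difference of 1.59 between pH 6.4 and pH 7.4. For YARS1 to YARS2 it was 2.83 ± 0.16 at pH 6.4, 2.45 ± 0.15 at pH 6.9 and 1.48 ± 0.16 at pH 7.4, a difference of 1.35. These pairs were the ones farthest above 0. The AARS1 to AARS2, WARS1 to WARS2, MARS1 to MARS2 and LARS1 to LARS2 ratios differed by 1.03, 0.88, 0.88 and 0.84, again with no overlap. In 3 of the pairs, for cysteine, tryptophan and leucine, the cytosolic gene was called higher and the mitochondrial gene lower in the same edgeR comparison. The threonine pair ran the other way. TARS1 to TARS2 was 3.67 ± 0.21 at pH 6.4, 4.58 ± 0.07 at pH 6.9 and 4.94 ± 0.31 at pH 7.4, a difference of -1.27, and RARS1 to RARS2 differed by -0.37, both without overlap. The pairs whose pH 6.4 and pH 7.4 groups overlapped were SARS1 to SARS2, FARSA to FARS2, EPRS1 to PARS2, NARS1 to NARS2 and HARS1 to HARS2.

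**Figure D3:**
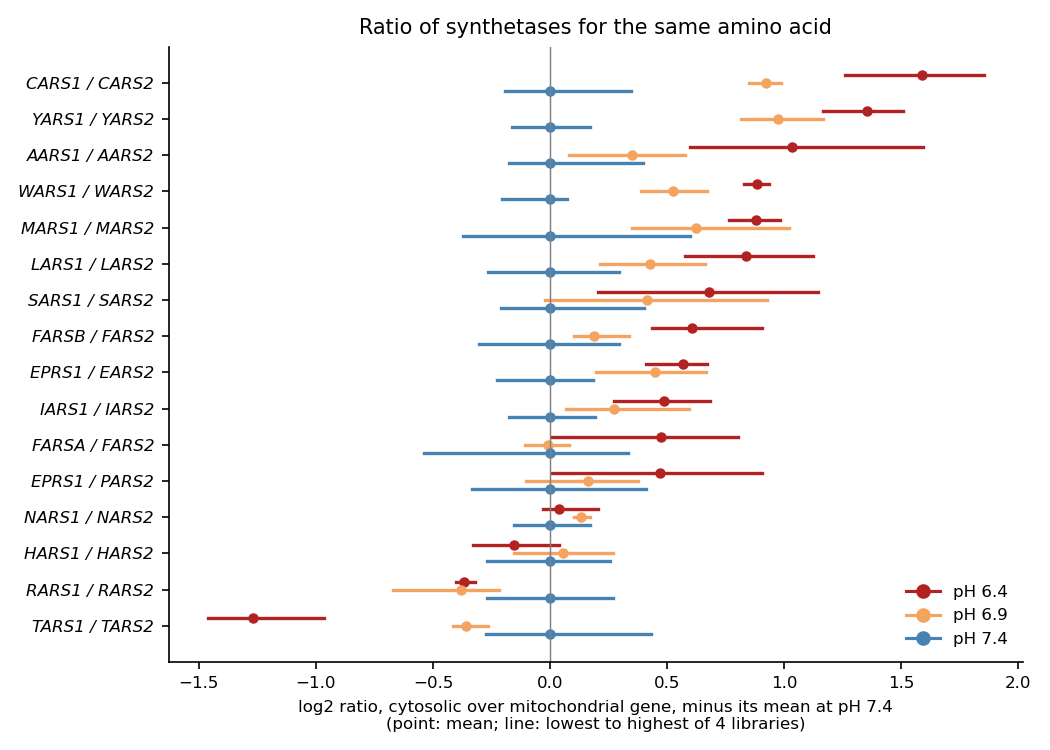
Log2 ratio of the cytosolic to the mitochondrial gene's CPM within a library, minus the pair's mean at pH 7.4 (x axis), for 16 pairs at pH 6.4 (red), pH 6.9 (orange) and pH 7.4 (blue), where points are means and lines run from the lowest to the highest of 4 libraries. In 9 pairs the red line lies wholly right of the blue one, and for TARS1 / TARS2 and RARS1 / RARS2 wholly left of it.

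Summed over genes, cytosolic and dual synthetase transcripts made up 4164 ± 390 CPM at pH 6.4, 3647 ± 213 CPM at pH 6.9 and 3139 ± 172 CPM at pH 7.4 (errors are SDs of 4 libraries). The sums at pH 6.4 and at pH 6.9 each lay above all sums at pH 7.4, by 1.33-fold and 1.16-fold in the means. Mitochondrial synthetase transcripts summed to 573 ± 43.4 CPM at pH 6.4, 567 ± 36.9 CPM at pH 6.9 and 563 ± 33.9 CPM at pH 7.4, with overlapping groups. The means of these sums differed by less than the spread between libraries. IARS2 alone, which was not called, made up 231 CPM at pH 6.4 and 215 CPM at pH 7.4. The ratio of the sums was 6.67, 7.53, 6.95 and 7.96 at pH 6.4, 6.02, 6.45, 6.35 and 6.94 at pH 6.9, and 5.63, 5.51, 5.53 and 5.64 at pH 7.4. The pH 7.4 libraries were nearly alike in this ratio, every acid library lay above them, and the pH 6.4 and pH 6.9 groups overlapped. These sums weigh abundant genes most.

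**Figure D4:**
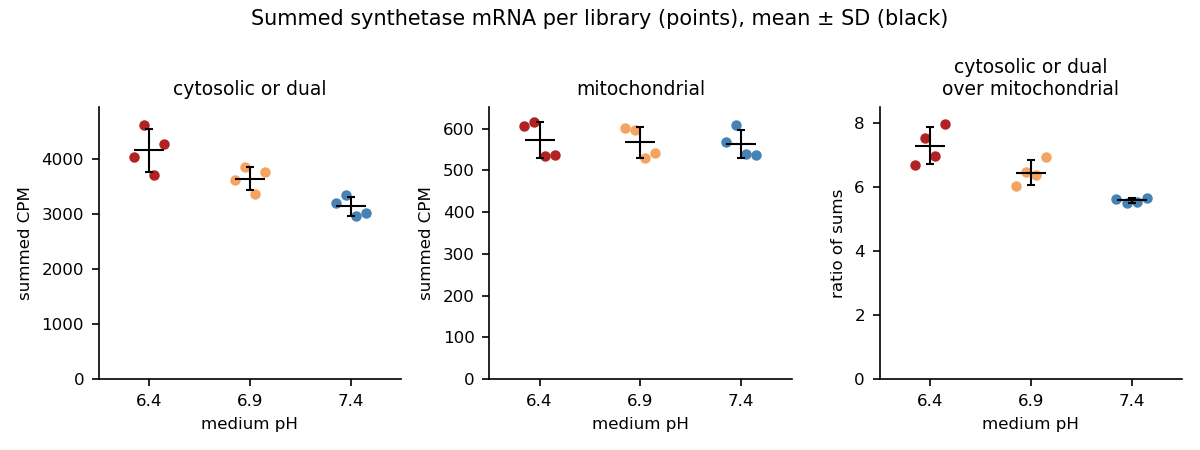
Summed CPM of the 19 cytosolic or dual genes (left), of the 16 mitochondrial genes (middle) and the ratio of these sums (right), each y axis from 0, in each library (points) with the mean and SD of 4 libraries in black. The cytosolic sum and the ratio are highest at pH 6.4 and lowest at pH 7.4, while the mitochondrial sums of the 3 media overlap.

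At pH 6.9 few genes moved at all, and synthetases were among them. CARS1, YARS1, IARS1 and MARS1 rose against pH 7.4, 4 of 19 cytosolic or dual genes or 21.1%, where 0.313% of all tested genes rose, 0.41% fell and 0.724% were called in either direction. GARS1 at 0.51 ± 0.12 (adjusted p = 0.071) and AARS1 at 0.49 ± 0.13 (adjusted p = 0.0964) did not pass, although all their pH 6.9 libraries stood above all at pH 7.4. In edgeR with the repeat number as a block both passed (adjusted p = 0.00541 and 0.00614), and 10 cytosolic genes were called. Over all 17544 tested genes the block called 519 higher and 428 lower. Whether the libraries of these 2 media are paired is uncertain, since the first repeats correlated at 0.08. MARS1, at 0.49 ± 0.11, passed narrowly (adjusted p = 0.0493), and its call was lost in 10 of 12 omissions of a single library (adjusted p of 0.0528 to 0.196), that of IARS1 in 7 (0.0549 to 0.132). No cytosolic gene fell and no mitochondrial gene was called in edgeR, with 0 cytosolic genes lower and 3 mitochondrial genes in either direction at an unadjusted p under 0.05, and 0 of both by DESeq2. DESeq2 called 7 cytosolic genes higher where edgeR called 4. Over all 17544 genes DESeq2 called 275 higher and 284 lower. The groups did not overlap for 8 cytosolic genes higher and 1 lower (RARS1), and for 1 mitochondrial gene higher (TARS2) and 3 lower (WARS2, YARS2 and EARS2). Among all tested genes 5.18% lay wholly above and 4.91% wholly below. Median log2 changes were 0.26 for the cytosolic or dual genes and -0.11 for the mitochondrial ones. This comparison shares its pH 7.4 libraries with the one at pH 6.4, so the values of the members are set side by side without a test of their likeness. Without the first repeat at pH 7.4, 2 cytosolic genes were called at pH 6.9, and the count was also 2 without any other single library at pH 6.9 or pH 7.4 except the third repeat at pH 6.9.

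Between the acid media, GARS1, AARS1, CARS1, MARS1 and YARS1 were higher at pH 6.4 than at pH 6.9, 5 of 19 cytosolic or dual genes (26.3%). In this comparison 8.83% of all tested genes were higher, 8.2% lower and 17% called in either direction. The higher share of the calls was 51.9%, or 38.2% with libraries scaled by their totals alone. Their log2 changes were close together, from 0.40 ± 0.10 for YARS1 (edgeR adjusted p = 0.0193) to 0.51 ± 0.12 for GARS1 (adjusted p = 0.0132). No cytosolic gene was called lower by edgeR or by DESeq2 (0 each), and 1 had an unadjusted p under 0.05. TARS2 was higher at pH 6.4 by 0.72 ± 0.13 (adjusted p = 0.00504) and FARS2 lower at -0.54 ± 0.15 (adjusted p = 0.0274), 2 of 16 mitochondrial genes. Omitting a single library lost the FARS2 call in 6 of 12 cases (adjusted p of 0.0512 to 0.0963), those of AARS1, MARS1 and YARS1 in 4 each and that of GARS1 in 1. The libraries did not overlap for GARS1, CARS1 and TARS2 on the higher side and FARS2 on the lower, beside 9.64% and 10.8% of all tested genes. With the repeat number as a block 13 cytosolic genes were called, 12 higher and TARS1 lower (-0.20, adjusted p = 0.0054). The rises added to the 5 above were EPRS1, IARS1, KARS1 (adjusted p = 0.0223), LARS1, QARS1, SARS1 and VARS1 (adjusted p = 0.0127). The block called 3 mitochondrial genes, with CARS2 lower as well (-0.26, adjusted p = 0.032). Over all 17544 tested genes it called 2823 higher and 2633 lower. The third repeat was the lowest of the pH 6.4 libraries for GARS1, AARS1, MARS1 and TARS2 and the highest for FARS2. Without it, and with no block, 9 cytosolic and 4 mitochondrial genes were called, where 4944 of all 17917 genes tested were. The cytosolic count was 1 without the fourth repeat at pH 6.4, and 2 without the second repeat at pH 6.4 or the first or the third at pH 6.9. The mitochondrial count was 1 without any other single library of these media except the second repeat at pH 6.9.

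Per length of exon, TARS1 had the highest level of the 35 genes at pH 7.4, 114 ± 11.1 CPM per kb (SD, n = 4), apart from all others. IARS2 followed at 51.6 ± 6.59 CPM per kb, the only mitochondrial gene among the 18 highest. GARS1, RARS1, NARS1, SARS1 and EPRS1 came next, from 48.3 down to 39.0 CPM per kb, and each overlapped its neighbour in this order. CARS1 and YARS1, which rose most among the cytosolic genes at pH 6.4, were the lowest of them per length at pH 7.4. They had 7.79 and 9.03 CPM per kb, near HARS2, RARS2 and LARS2. This place rests on their exon lengths, 10037 and 8212 bases, the longest of the cytosolic genes. In mean CPM at pH 7.4, FARSB (51.4) and FARSA (73.1) were lower than YARS1 (74.2) and CARS1 (78.2). TARS2 stood at 5.26, FARS2 at 3.43, SARS2 at 1.20 and VARS2 at 0.0671 CPM per kb. In 7 of the 34 steps of the order the libraries of the neighbours did not overlap. Exon lengths were taken from GENCODE release 29 over all transcripts of a gene, so a gene with a long and rarely used exon is set too low. By fold of the enzyme, 7 of 18 genes of class I rose at pH 6.4 and 3 fell (55.6% called), and 5 of 16 of class II rose and 1 fell (37.5%), beside 30.3% of all tested genes. EPRS1 joins both folds and is in neither count.

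Other genes of tRNA charging and translation moved in part with these. XPOT, the exporter of tRNAs from the nucleus, averaged 295 ± 35.8 CPM at pH 6.4, 213 ± 22.7 CPM at pH 6.9 and 146 ± 17.9 CPM at pH 7.4 (errors are SDs of 4 libraries), a log2 change of 1.01 ± 0.11 at pH 6.4 (edgeR adjusted p = 4.15e-05) and 0.54 ± 0.11 at pH 6.9 (adjusted p = 0.0381) against pH 7.4. The call at pH 6.9 was lost in 8 of 12 omissions of a single library (adjusted p of 0.0523 to 0.165), with 0.49 (adjusted p = 0.117) for XPOT without the first repeat at pH 7.4. It was the 1 gene of 6 for tRNA export, proofreading and recycling that was called (16.7% at pH 6.4, beside 30.3% of all tested genes). Of 12 partners of mitochondrial tRNA charging, 4 fell and 1 rose at pH 6.4 (41.7% called, beside 30.3% of all tested genes), and the median log2 change was -0.12. HSD17B10, a subunit of the mitochondrial enzyme that trims tRNA 5′ ends, averaged 24.4 ± 1.75 CPM at pH 6.4 and 39.8 ± 3.10 CPM at pH 7.4 (log2 change -0.70 ± 0.09, adjusted p = 8.48e-05). QRSL1 and GATB, subunits of the amidase that turns glutamate on mitochondrial tRNA into glutamine, were lower, at -0.66 (adjusted p = 0.00102) and -0.41 (adjusted p = 0.0185) on the log2 scale, while GATC, another subunit, was at 0.06 (adjusted p = 0.554). The GATB call was lost without the second or the fourth repeat at pH 6.4 (adjusted p = 0.0648 and 0.0593). Of 9 mitochondrial translation factors GFM1, an elongation factor, fell (-0.81 ± 0.11, adjusted p = 0.000107), so that 11.1% were called beside 30.3% of all tested genes. Of 5 cytosolic elongation factor genes tested 40% were called, as EEF2 rose (0.35 ± 0.09, adjusted p = 0.0101) and EEF1A2 fell (-0.51 ± 0.18, adjusted p = 0.0464). The EEF1A2 call was lost in 10 of 12 omissions of a single library (adjusted p of 0.0521 to 0.144). Of 4 genes for selenocysteine charging SEPHS2, which makes the selenium donor, fell (-0.46 ± 0.10, adjusted p = 0.00352), so that 25% were called.

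Genes for proteins of the mitochondrial ribosome, 77 of which were tested, fell in 21 cases and rose in 3 at pH 6.4. Of all tested genes 14.7% fell and 15.6% rose. In either direction 31.2% of the list was called, beside 30.3% of all tested genes. The list's median log2 change was -0.15. MRPL1 averaged 19.6 ± 4.596 CPM at pH 6.4 and 37.1 ± 1.92 CPM at pH 7.4 (log2 change -0.92 ± 0.14, edgeR adjusted p = 0.00029) and MRPL57 16.8 ± 4.89 CPM at pH 6.4 and 28.3 ± 4.92 CPM at pH 7.4 (-0.75 ± 0.18, adjusted p = 0.00663). MRPS6 had the lowest value, -1.18 ± 0.14 (adjusted p = 6.74e-05), but it shares its strand with the solute carrier gene SLC5A3, so its counts are uncertain. Genes of the integrated stress response rose in 14 of 17 cases (82.4%) and fell in 0, where 15.6% of all tested genes rose and 14.7% fell. The median log2 change of this list was 0.92. For the falls, 0 genes had an unadjusted p under 0.05 and 0 were called by DESeq2. ATF4 itself averaged 201 ± 19.4 CPM at pH 6.4, 189 ± 11.1 CPM at pH 6.9 and 131 ± 5.93 CPM at pH 7.4, with a change of 0.62 ± 0.08 at pH 6.4 (adjusted p = 0.000107), and EIF2AK4, which encodes GCN2, changed by 0.60 ± 0.12 (adjusted p = 0.00208). CHAC1, a glutathione-degrading enzyme, changed by 2.02 ± 0.25 (adjusted p = 8.46e-05) and SLC7A11, the cystine transporter, by 1.48 ± 0.21 (adjusted p = 0.000182). ASNS, which makes asparagine, changed most at 3.17 ± 0.41 (adjusted p = 0.000104), with 3.96 ± 1.41 CPM at pH 6.4 against 0.437 ± 0.167 CPM at pH 7.4, and another annotated transcript shares its strand. The stress response list was drawn up with earlier results of these data known and is no independent evidence of a direction.

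**Figure D5:**
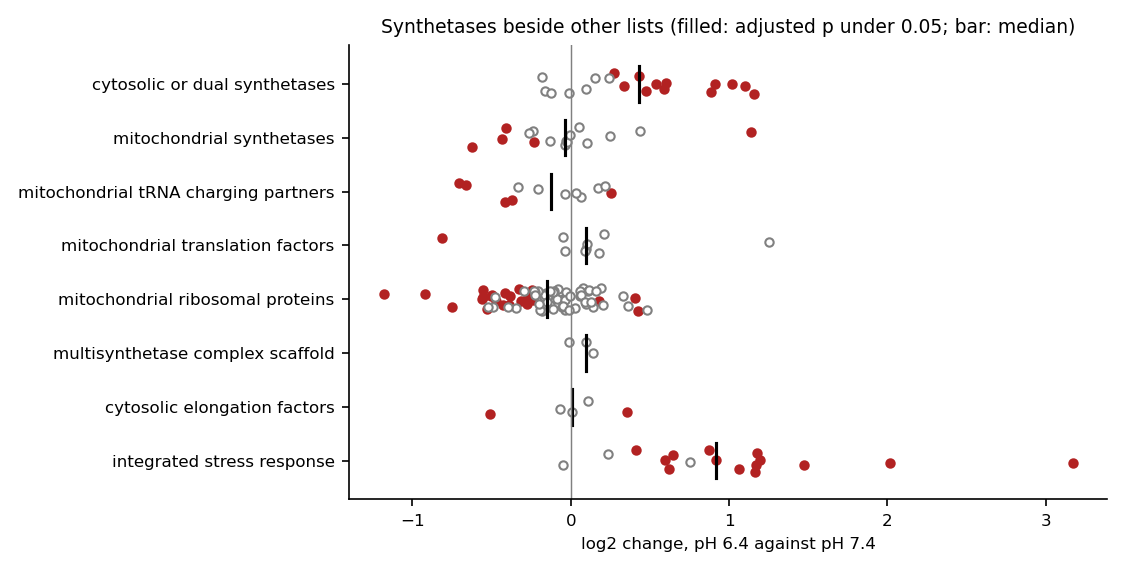
Log2 change at pH 6.4 against pH 7.4 (x axis) of each tested gene (points, filled where the adjusted p was under 0.05) in the 2 synthetase groups and in 6 other lists, with a bar at each list's median. The medians are 0.43 for cytosolic or dual synthetases, -0.03 for mitochondrial synthetases, -0.15 for mitochondrial ribosomal proteins and 0.92 for the integrated stress response.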

How the data were processed

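Each sample was 1 RNA library of 1 culture medium, and the authors deposited raw counts of reads per gene in 1 table for the 12 libraries. Per the labels' protocols, libraries came from a stranded poly(A) kit. Per the submitters' processing notes, STAR and featureCounts were used with GRCh38.p13 (hg38), while versions, strand setting and the handling of multi-mapped reads were not given in the sources used here. Genes with no symbol held at most 0.424% of a library's counts and stayed in the fit as genes.

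In R 4.3.3, edgeR 4.0.16 (with limma 3.58.1) removed 43120 genes with filterByExpr and scaled libraries by TMM. 1 term per medium was fitted to the 12 libraries (9 residual degrees of freedom, biological coefficient of variation 0.198). The robust quasi-likelihood test compared the media, adjusted by Benjamini-Hochberg over 17544 genes, and a gene was called at an adjusted p under 0.05. CPM is a count per TMM-scaled library total, with its SD over 4 libraries, except for the cell type markers, which were scaled by library totals alone.

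Members, lists and the naming rule were chosen with earlier results of these data known. The rule gives values per library for the called members with the 8 largest cytosolic and 6 largest mitochondrial changes, for GARS1, KARS1, WARS1, EPRS1 and QARS1, and for pairs called in opposite directions. Of other lists it names up to 3 called genes with the largest change, and ATF4, EIF2AK4 and DDIT3 were named after their values were seen.

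The media share repeat numbers 1 to 4 in the labels, so deviations from group means were correlated between same-numbered libraries. All 8 correlations with pH 6.4 libraries exceeded 0.1 (0.113 to 0.47), which pairs the libraries for the comparisons of pH 6.4. Between pH 6.9 and pH 7.4 the first repeats gave 0.08 and the others 0.16 to 0.352, which leaves their pairing uncertain. Unless the block is named, edgeR p-values, SEs and calls come from the fit without it, also for pH 6.4. Blocked values stand beside the pH 6.4 calls they change, and beside GARS1 and AARS1 at pH 6.9. At pH 6.4 against pH 7.4 the block gave LARS1 an adjusted p of 4.44e-06, EPRS1 5.73e-05 and CARS1 1.62e-06. In all, 23 alternatives were run, including DESeq2 1.42.0, other scalings and filters, and each library left out. Promoter windows were RefSeq's, from GRCh38.p14. Coordinates and exon lengths of genes came from GENCODE release 29. Counting limits the precision of low genes such as VARS2.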

Additional observations from a re-analysis of the deposited data

Results flagged for a closer look

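In 6 of 105 groups of 4 libraries, 1 library stood farther from the other 3 than Dixon's 95% limit allows, and chance alone gives about 1 in 20. The first repeat at pH 7.4, which held the fewest detected genes, gave 2 of the 6: FARSA, at 58.8 CPM where the others had 77.3 to 78.2 CPM, and VARS2, at 0 CPM where the others had 0.745 to 0.765 CPM. NARS1 had 195 CPM in the second repeat at pH 7.4 and 164 to 166 CPM in the others. TARS1 had 662 CPM in the second repeat at pH 6.4 and 573 to 583 CPM in the others. In the second repeat at pH 6.9, EARS2 had 25.0 CPM beside 27.6 to 27.8 CPM and WARS2 had 17.5 CPM beside 20.7 to 21.3 CPM. No cause was tested.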

How the results depend on the processing

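For pH 6.4 against pH 7.4, 10 to 13 cytosolic genes were called higher with any single library left out, and AARS1, CARS1, GARS1, IARS1, LARS1, MARS1, SARS1, WARS1, YARS1 and TARS2 passed in all 23 alternatives. Of the 17 members called, 0 changed sign. NARS1 and QARS1 lost their calls in 9 alternatives each and LARS2 in 17. FARS2, WARS2 and EPRS1 lost theirs with repeats 3 and 4 only, and CARS2 with either pair of repeats. Fewer libraries stand behind these fits, and other causes were not tested.

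For pH 6.4 against pH 7.4, 1 cytosolic gene was called lower with library size only, a mean of at least 1 CPM, DESeq2, and without either set of 2 doubted libraries, and 2 with the replicate block (range 0 to 1 with single libraries left out). The mitochondrial count of genes higher was 2 with no filter on low counts, DESeq2, the replicate block and without the libraries with the fewest genes (the first repeat at pH 7.4 and the second at pH 6.9). It was 3 without the first repeat at pH 7.4 and the third at pH 6.4, a choice made after seeing the data, and 1 to 3 with single libraries left out. Mitochondrial genes lower were 2 with repeats 1 and 2 only and 0 with repeats 3 and 4 only in edgeR, where 1 had an unadjusted p under 0.05. The median log2 change of cytosolic or dual genes less that of mitochondrial genes, 0.47, was 0.63 with repeats 3 and 4 only, 0.62 without the libraries with the fewest genes, and 0.47 to 0.62 with single libraries left out. For pH 6.9 against pH 7.4 the cytosolic count of 4 became 7 with DESeq2, 10 with the replicate block, 1 without the libraries with the fewest genes, 0 with repeats 1 and 2 only or 3 and 4 only (8 and 9 higher at an unadjusted p under 0.05), and 2 to 6 with single libraries left out. That difference, 0.37 there, was 0.22 to 0.43 over those omissions. For pH 6.4 against pH 6.9 the cytosolic count of 5 became 13 with the replicate block, 10 without the first repeat at pH 7.4 and the third at pH 6.4, 0 with repeats 3 and 4 only (5 at an unadjusted p under 0.05), and 1 to 9 with single libraries left out. The mitochondrial count of 2 there became 1, 4 and 0 (with 2 at an unadjusted p under 0.05) under repeats 1 and 2 only, the same omission of a pair of libraries, and repeats 3 and 4 only, and ran from 1 to 4 over single omissions.

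Same-numbered libraries at pH 6.9 and pH 7.4 correlated at 0.08, 0.16, 0.277 and 0.352. Over all media 10 of 12 libraries correlated best with one of their own number. Pairing of pH 6.9 with pH 7.4 thus remains uncertain, and counts with and without the block are given. Over all genes, 127 calls at pH 6.9 against pH 7.4 became 559 with DESeq2, 947 with the replicate block, 250 with only the groups compared, 201 with no filter, 20 without the libraries with the fewest genes, 216 without the first repeat at pH 7.4 and the third at pH 6.4, 7 and 0 with either pair of repeats, and 39 to 306 with single libraries left out. The 2988 calls at pH 6.4 against pH 6.9 became 5456 with the block, 6186 with that same omission, 1906 and 0 with the pairs of repeats and 1171 to 4944 with single libraries left out. The 5321 at pH 6.4 against pH 7.4 became 1528 with repeats 3 and 4 only. The block changed no member's call other than those given with the results and, at pH 6.9 against pH 7.4, 6 further rises (AARS1, EPRS1, GARS1, LARS1, SARS1 and WARS1).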
